A study of Mus musculus with 12 samples.

Results

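The core genes of transforming growth factor beta (TGF-beta) signalling were followed in MC38, a mouse colorectal cancer cell line, after a kinase inhibitor, X-rays or both. The genes were 9 of the 54532 in the deposited table, taken by name. They were the ligands Tgfb1, Tgfb2 and Tgfb3, the receptors Tgfbr1, Tgfbr2 and Tgfbr3, and the signal transducers Smad2, Smad3 and Smad4. Each had 1 row in the table, and each reached an FPKM of 1 in all 12 libraries. FPKM divides the fragments of a gene by its length and by the size of the library, so it can be compared between genes of different length.

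The study held 4 groups of 3 bulk RNA libraries. Cells received nintedanib at 3 µM, X-rays at 8 Gy, or nintedanib at 3 µM with X-rays at 8 Gy (the combination), and untreated control cells were harvested with them. The time given for each treated group is 24 hours. Nintedanib is a small-molecule inhibitor of the receptor tyrosine kinases for vascular endothelial, fibroblast and platelet-derived growth factors. The submitters describe the experiment as independently repeated 3 times, and whether the controls received a vehicle is not given in the sources used here. Every group was the same cell line grown in culture, so the libraries stand for 1 line and hold no host cells by design.

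TGF-beta ligands are secreted in a latent complex and act after release. An active ligand binds the type II receptor Tgfbr2, which phosphorylates the type I receptor Tgfbr1. Tgfbr1 then phosphorylates Smad2 and Smad3, and these enter the nucleus with Smad4 and regulate transcription. Betaglycan, the product of Tgfbr3, presents ligand to the signalling receptors and matters most for TGF-beta 2. In colorectal cancer the pathway is known both for growth restraint, which tumours often lose through TGFBR2 or SMAD4 mutations, and for effects on stroma and T cells.

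The libraries held 16103528 to 18196615 fragments, recovered from the whole-number steps in the FPKM values. The 9 genes rested on 157 fragments (Tgfb2 after radiation) to 4860 fragments (Tgfbr2) per library. The label of a colorectal carcinoma cell was set against epithelial markers, of which 2 of 10 reached FPKM 1, Cdh1 at 4.12 to 8.73 and Krt19 at 0.623 to 4.82. Epcam was listed at 0 in every library, and Krt8, Krt18, Krt20, Cdx2 and Vil1 stayed below 1. Mesenchymal markers all reached FPKM 1, 10 of 10, with Vim at 498 to 618. Fibroblast markers reached FPKM 1 for 7 of 10, among them Col1a2 at 58.3 to 126, Col3a1 at 53.5 to 79.9 and Pdpn at 36.5 to 85.0, while Lum was listed at 0 in every library. Leukocyte markers reached it for 3 of 10, with Cd68 at 3.55 to 19.5 and Cd14 at 6.19 to 10.4, while the T cell gene Cd3e was listed at 0 and Ptprc did not exceed 0.0292. Endothelial markers reached it for 2 of 8, with Tek at up to 2.02 and Emcn listed at 0. The third nintedanib library stood apart, with 0.137% of its fragments in small RNAs against 0.259% to 0.484% in the other 11 libraries, and with the highest mitochondrial share, 2.12%.

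Against untreated cells, Tgfb2, Tgfb3 and all 3 receptor genes were higher and Smad3 was lower, both after nintedanib alone and after the combination. Radiation alone lowered Tgfb2 and raised Tgfbr1. The combination also lowered Smad2, while Tgfb1 and Smad4 did not pass the test in any comparison. Against radiation alone, the combination passed for Tgfb2, Tgfbr2 and Smad3, and not for Tgfb3, Tgfbr1 or Tgfbr3. Of the 9, Tgfb2 had the widest span relative to its level, averaging 5.92 FPKM after nintedanib and 1.63 FPKM after radiation. Differences were tested with limma on log2(FPKM + 1) over the 13012 genes that reached an FPKM of 1 in 3 or more libraries, two-sided, and were called at a Benjamini-Hochberg adjusted p under 0.05 over all of them. In bulk RNA, fewer cells of a kind and less RNA per cell cannot be told apart.

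Many genes were called in this series, so the counts for the 9 genes stand beside the share called among all genes tested. Against control, nintedanib gave 5 of 9 genes higher and 1 lower, where 19.7% and 22% of genes tested were higher and lower. Without the third nintedanib library 5 of the 9 were called, Tgfbr3 no longer among them. The combination gave 5 higher and 2 lower, where 22.3% and 25% were higher and lower. Radiation gave 1 higher and 1 lower, where 8.04% and 9.9% were higher and lower. The median log2 change of the 9 genes was 0.32 for nintedanib, 0.060 for radiation and 0.29 for the combination, beside medians of -0.016, -0.035 and -0.032 over all genes tested. The direction of the wider response depended on scaling: 47.2% of the genes called for nintedanib were higher, and 60% after rescaling FPKM to a common sum. For radiation the higher share was 44.8%, and it was 69.7% after that rescaling and 59.9% with limma-voom on recovered fragments. Single libraries moved the radiation count, which was 2334 genes: 1145 were called without the second radiation library, 1523 without the first, 1333 without the second control and 1250 without the third control. These 3 comparisons share the control libraries.

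**Figure D1:**
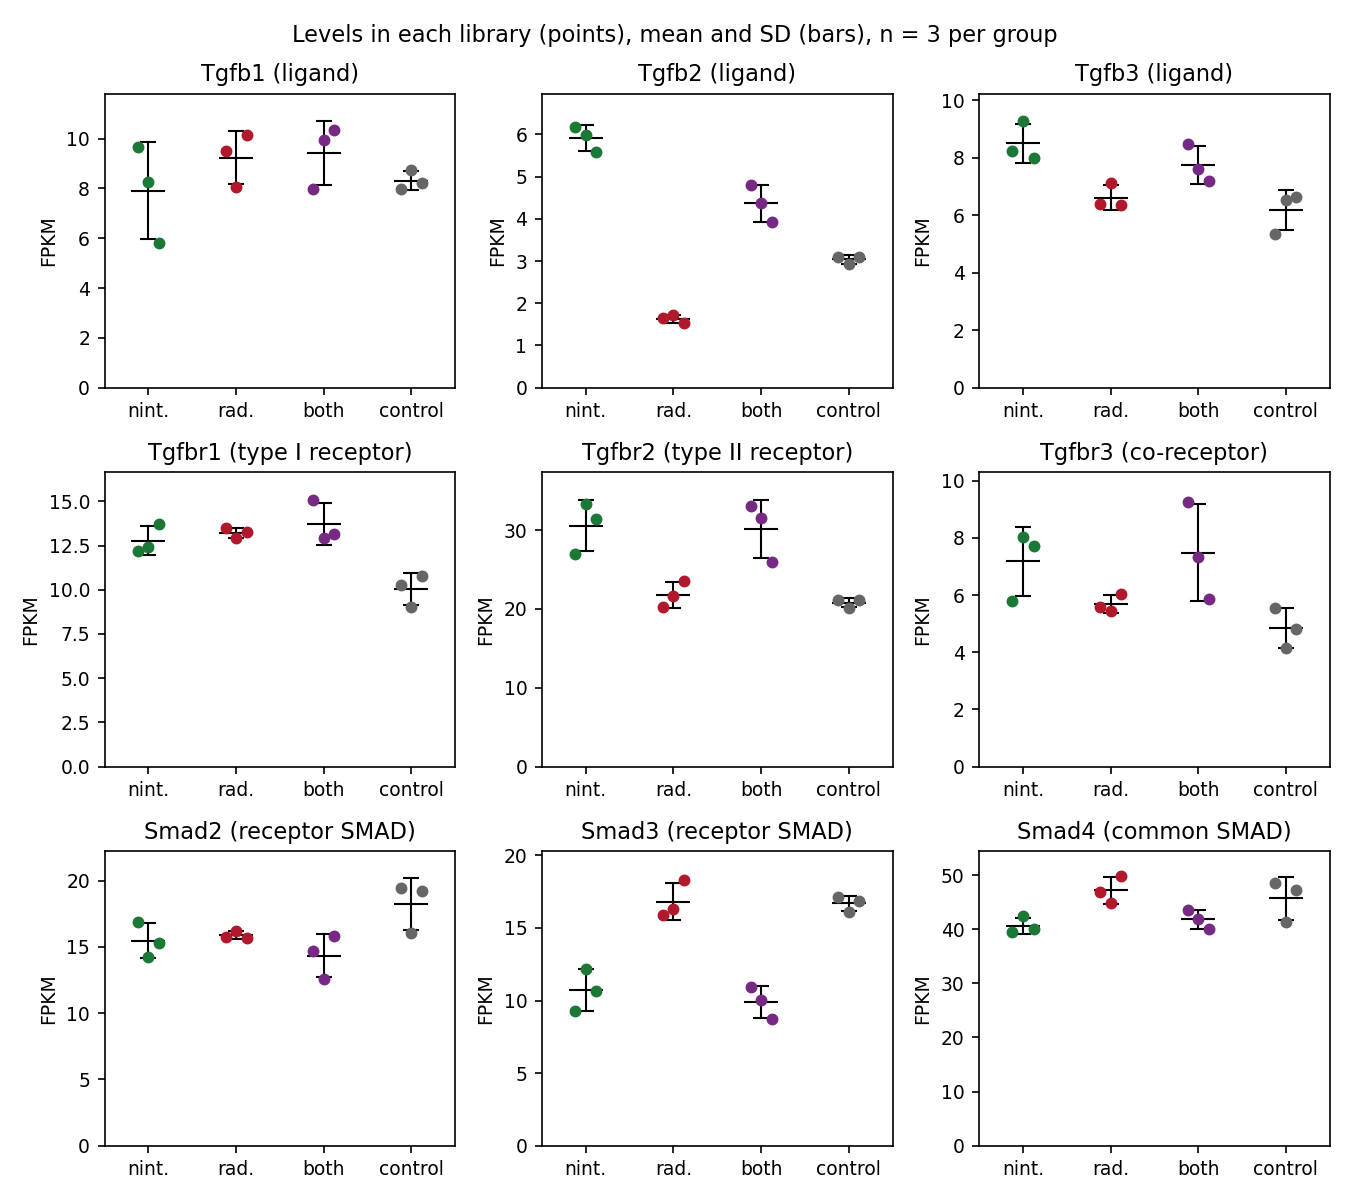
FPKM of each of the 9 genes (y axis, linear, from 0) in the 3 libraries of the nintedanib (nint.), radiation (rad.), combination (both) and control groups; points are libraries and bars are mean and SD. The 4 groups of Tgfb2 do not overlap, the nintedanib and combination points of Smad3 lie below those of the other groups, and the Tgfb1 points of all groups overlap.

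**Figure D2:**
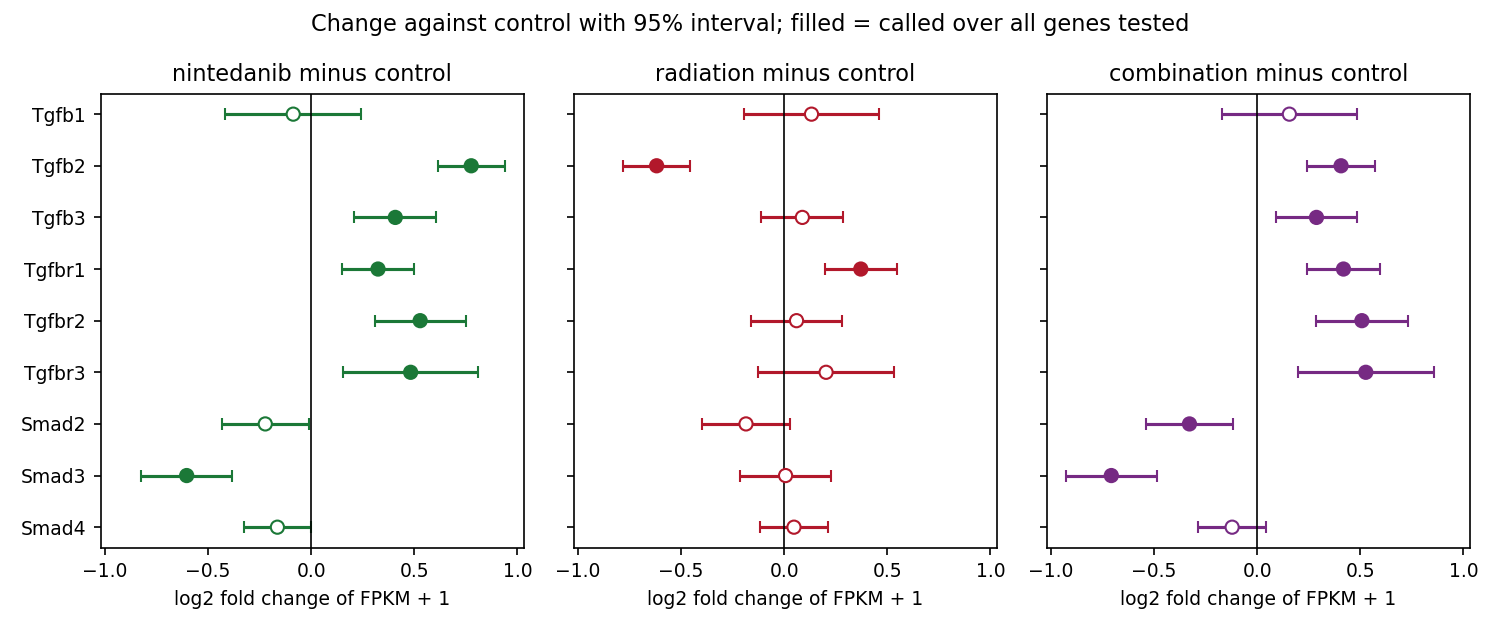
Difference of each gene from control in log2(FPKM + 1) (x axis) for nintedanib, radiation and the combination, with 95% intervals from limma. Filled points passed the adjusted threshold over all genes tested: 6 genes for nintedanib, 2 for radiation and 7 for the combination.

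Among the ligands, Tgfb2 (ENSMUSG00000039239, protein coding, chr1:186622792-186705989, minus strand, GRCm38) passed in every pair of groups tested, which left out nintedanib against radiation. It measured 6.18, 5.98 and 5.59 FPKM in the nintedanib libraries, against 3.09, 2.92 and 3.10 FPKM in the controls. After radiation it measured 1.66, 1.72 and 1.52 FPKM, and after the combination 4.79, 4.36 and 3.93 FPKM. The order was nintedanib, combination, control, radiation, and no library of one group fell inside the range of another. The difference from control was 0.78 ± 0.074 (log2, SE) for nintedanib, -0.62 ± 0.074 for radiation and 0.41 ± 0.074 for the combination. The limma adjusted p was 1.26e-05, 0.000468 and 0.000929 in that order. A pseudocount of 1 understates changes at such low levels: the ratio of mean FPKM to control was 1.95 for nintedanib, 0.537 for radiation and 1.44 for the combination.

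Tgfb2 in the combination stood between the single treatments. It was higher than after radiation alone by 1.02 ± 0.074 (log2, SE, limma adjusted p = 3.55e-06) and lower than after nintedanib alone, at -0.37 ± 0.074 (adjusted p = 0.0176). That last call was lost in 4 of 23 other settings: without the second nintedanib library (adjusted p = 0.0584), without the second (0.0615) or the third combination library (0.0574), and when the fit held those 2 groups alone (0.126). The recovered fragments behind Tgfb2 were 157 to 638 per library. The gene overlaps an antisense gene, Gm29491, over 295 bases and a small nucleolar RNA gene, Gm26169, both on the opposite strand. Neither exceeded 0.443 FPKM, and the strand setting of the counting is not given in the sources used here.

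The promoters of the ligand gene called in every pair of groups tested and of the ligand gene called in none are shown side by side. The 250 bases before the RefSeq start site are printed 5′ to 3′ on the strand of the gene, in GRCm38.p6, for Tgfb2 (chr1:186705990-186706239, minus strand) and Tgfb1 (chr7:25686752-25687001, plus strand). Capitals mark matches on either strand. The motifs of general promoters were the TATA box, spelled TATAAA, and the GC box, bound by Sp1-like factors and spelled GGGCGG. Those of regulated factors were the E-box, spelled CACGTG, the AP-1 site, spelled TGANTCA, and the cyclic AMP response element, spelled TGACGTCA. SMAD proteins are known to bind the SMAD box, spelled CAGAC, and the palindrome GTCTAGAC. No match printed here overlaps another.
Tgfb2: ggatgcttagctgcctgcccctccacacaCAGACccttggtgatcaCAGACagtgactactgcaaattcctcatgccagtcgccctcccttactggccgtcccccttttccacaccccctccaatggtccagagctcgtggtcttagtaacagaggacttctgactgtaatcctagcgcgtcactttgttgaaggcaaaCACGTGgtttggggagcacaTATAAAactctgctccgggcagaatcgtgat
Tgfb1: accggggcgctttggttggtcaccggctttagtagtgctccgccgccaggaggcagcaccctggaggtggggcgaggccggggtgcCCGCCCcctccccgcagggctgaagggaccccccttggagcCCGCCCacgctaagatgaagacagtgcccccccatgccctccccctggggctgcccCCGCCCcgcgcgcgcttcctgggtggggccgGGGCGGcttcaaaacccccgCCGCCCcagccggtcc
The Tgfb2 window held 1 E-box starting 51 bases and 1 TATA box starting 31 bases before the start site, 2 SMAD boxes and no GC box, with 53.6% G and C. The Tgfb1 window held 5 GC boxes and no other of these motifs, with 75.2% G and C. Of 32851 RefSeq windows of the same length, 6.02% held the E-box, 12.4% the TATA box, 32.7% the GC box and 42.2% the SMAD box. These are matches of letters in 1 window and describe no binding.

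Tgfb3 (ENSMUSG00000021253, protein coding, chr12:86056745-86079041, minus strand) encodes the third isoform, which binds the same receptors. It measured 8.24, 9.28 and 8.00 FPKM after nintedanib, 6.38, 7.12 and 6.34 FPKM after radiation and 8.47, 7.59 and 7.18 FPKM after the combination, against 5.36, 6.53 and 6.64 FPKM in controls. Every nintedanib and combination library lay above every control library, and the radiation and control ranges overlapped. The gene rose by 0.41 ± 0.090 (log2, SE) with nintedanib and by 0.29 ± 0.090 with the combination, at limma adjusted p = 0.00379 and 0.0212. For the combination, the call was lost without the first control library (0.20, adjusted p = 0.0907) and without the first combination library (0.23, adjusted p = 0.0798). Radiation gave 0.089, with a 95% interval of -0.11 to 0.29 and an adjusted p of 0.541. Tgfb3 shares 5149 bases with Ttll5 on the opposite strand. Ttll5 did not exceed 2.47 FPKM and differed from control by 0.20 after nintedanib (adjusted p = 0.0739) and 0.22 after the combination (adjusted p = 0.0531).

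Tgfb1 (ENSMUSG00000002603, protein coding, chr7:25687002-25705077, plus strand) encodes the isoform best known in tumours and immunity. It measured 9.65, 8.27 and 5.81 FPKM after nintedanib, 9.52, 8.06 and 10.1 FPKM after radiation and 7.98, 9.95 and 10.3 FPKM after the combination, against 7.97, 8.73 and 8.22 FPKM in controls. All 4 groups overlapped. The lowest value belonged to the third nintedanib library, the one that stood apart in small RNA and mitochondrial shares. Nintedanib gave -0.087 (95% interval -0.42 to 0.24, limma adjusted p = 0.679), and 0.095 without that library (adjusted p = 0.568). The intervals for radiation, -0.20 to 0.46, and for the combination, -0.17 to 0.49, also held 0, with adjusted p = 0.584 and 0.419.

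The share of Tgfb2 in the summed ligand FPKM was highest after nintedanib and lowest after radiation. Tgfb2 made up 26.6% ± 1.89 of the summed ligand FPKM after nintedanib, 9.36% ± 0.858 after radiation and 20.3% ± 2.14 after the combination, against 17.4% ± 1.37 in controls (SD, n = 3 each). The radiation libraries, at 8.46% to 10.2%, and the nintedanib libraries, at 25.4% to 28.8%, lay outside the control range of 16.1% to 18.8%. The combination range, 18.3% to 22.6%, overlapped that of the controls. Summed ligand FPKM was 22.3 ± 2.56 after nintedanib, 17.5 ± 0.552 after radiation and 21.5 ± 0.337 after the combination, against 17.5 ± 0.964 in controls. Tgfb1 had the largest mean share after radiation, at 52.8%, after the combination, at 43.7%, and in controls, at 47.4%. The Tgfb1 and Tgfb3 shares did not overlap in the radiation and control libraries, and overlapped after the combination, at 37.6% to 48.2% for Tgfb1 and 33.5% to 39.9% for Tgfb3. After nintedanib they averaged 35.1% for Tgfb1 and 38.3% for Tgfb3, with ranges of 30.0% to 40.1% and 34.2% to 41.2% that overlapped, so neither ligand was ahead beyond the spread. Without the third nintedanib library the means were 37.6% for Tgfb1 and 36.8% for Tgfb3. No test was made on these shares.

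**Figure D3:**
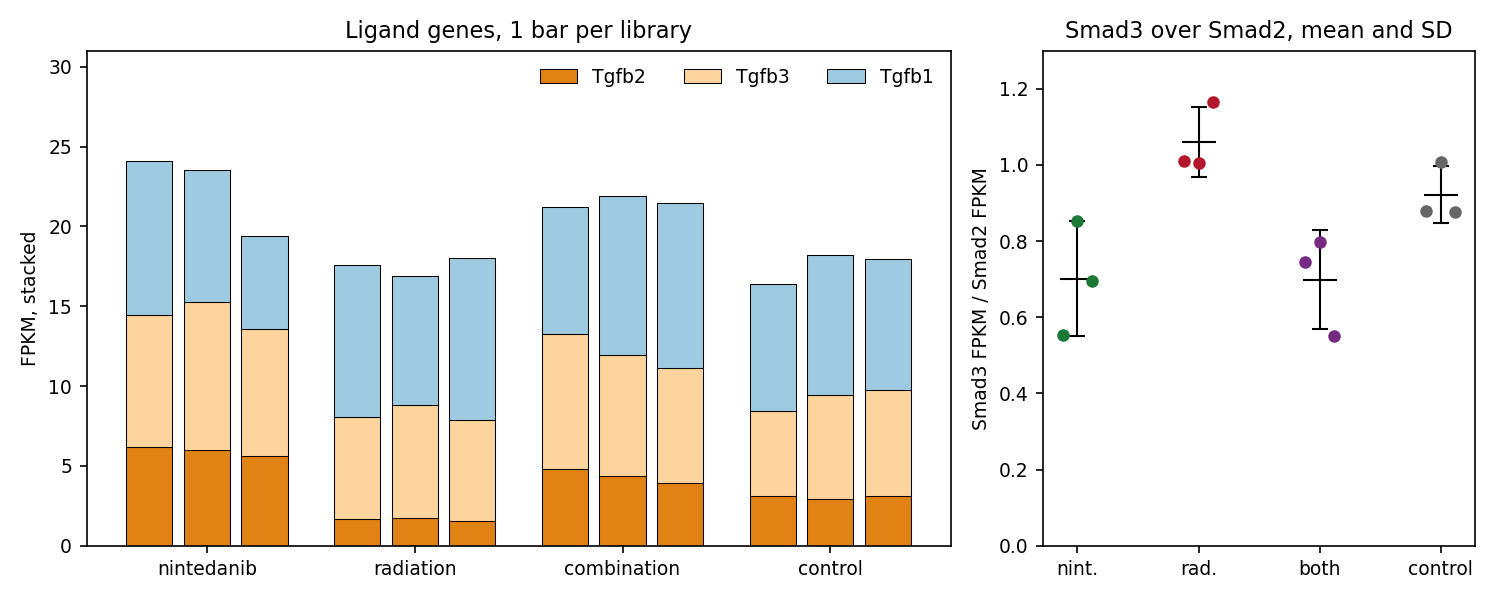
Left, FPKM of the 3 ligand genes stacked in 1 bar per library (y axis from 0), Tgfb2 at the bottom, for the nintedanib, radiation, combination and control groups. Right, ratio of Smad3 to Smad2 FPKM per library, with mean and SD. The Tgfb2 block is thinnest in the 3 radiation libraries and thickest in the 3 nintedanib libraries, and the Smad3 to Smad2 ratio averages 0.701 after nintedanib, 1.06 after radiation, 0.699 after the combination and 0.921 in controls.

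The receptor genes all rose with nintedanib and with the combination. Tgfbr2 (ENSMUSG00000032440, protein coding, chr9:116084293-116175360, minus strand) encodes the kinase that binds ligand first. It measured 27.0, 33.3 and 31.4 FPKM after nintedanib and 33.0, 31.5 and 26.0 FPKM after the combination, against 21.2, 20.1 and 21.1 FPKM in controls. The radiation libraries, at 20.3, 21.6 and 23.5 FPKM, overlapped the controls, and both groups given nintedanib lay above all 6 others. The change was 0.53 ± 0.10 (log2, SE, limma adjusted p = 0.00153) for nintedanib and 0.51 ± 0.10 for the combination (adjusted p = 0.00162). Against radiation alone, the combination was higher by 0.45 ± 0.10 (adjusted p = 0.00536). Radiation gave 0.060, with an interval of -0.16 to 0.28.

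The promoter window of Tgfbr2 (chr9:116175364-116175613, minus strand) is shown with the same marks because the gene, like Tgfb2, was called higher after nintedanib and after the combination against control, and in the combination against radiation.
Tgfbr2: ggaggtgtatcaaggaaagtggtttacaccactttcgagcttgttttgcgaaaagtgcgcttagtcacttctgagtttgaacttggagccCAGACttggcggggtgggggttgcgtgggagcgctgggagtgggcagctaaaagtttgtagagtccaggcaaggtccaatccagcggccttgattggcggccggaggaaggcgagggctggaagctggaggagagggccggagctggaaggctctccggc
It held 1 SMAD box starting 160 bases before the RefSeq start site and none of the other motifs, with 58.4% G and C. It shares the SMAD box with the Tgfb2 window, as do 42.2% of all windows. Tgfbr1, also called higher after nintedanib and after the combination, was searched as well. Its window at the gene start of the deposited table held 2 GC boxes and no SMAD box. The window of another RefSeq start, 32994 bases further on, held 1 SMAD box.

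Tgfbr1 (ENSMUSG00000007613, protein coding, chr4:47353222-47414931, plus strand) encodes the kinase that phosphorylates Smad2 and Smad3. It measured 12.2, 12.4 and 13.7 FPKM after nintedanib, 13.5, 12.9 and 13.3 FPKM after radiation and 15.1, 12.9 and 13.1 FPKM after the combination, against 10.2, 9.02 and 10.8 FPKM in controls. All 9 treated libraries lay above all 3 controls, and the treated groups overlapped each other. The change was 0.32 ± 0.080 for nintedanib, 0.37 ± 0.080 for radiation and 0.42 ± 0.080 for the combination (log2, SE, limma adjusted p = 0.00685, 0.00979 and 0.00123). Tgfbr1 was the 1 gene of the 9 called higher after radiation alone. The combination differed from nintedanib by 0.094 (interval -0.080 to 0.27) and from radiation by 0.047 (interval -0.13 to 0.22).

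Tgfbr3 (ENSMUSG00000029287, protein coding, chr5:107106570-107289629, minus strand), the betaglycan gene, was the least precise of the receptors. It measured 5.80, 8.04 and 7.71 FPKM after nintedanib, 5.59, 5.46 and 6.05 FPKM after radiation and 9.27, 7.33 and 5.86 FPKM after the combination, against 5.56, 4.16 and 4.80 FPKM in controls. The nintedanib and combination libraries lay above the controls, with gaps as small as 5.80 against 5.56 FPKM. The change was 0.48 ± 0.15 (log2, SE, limma adjusted p = 0.0228) for nintedanib and 0.53 ± 0.15 (adjusted p = 0.0130) for the combination. The nintedanib call was lost in 5 of 23 other settings, among them without the third nintedanib library (0.43, adjusted p = 0.0689), without the second (0.40, adjusted p = 0.0855), without the second control (0.40, adjusted p = 0.0863) and without the third control (0.48, adjusted p = 0.0570). The combination call was lost without the first combination library (0.38, adjusted p = 0.0517) and without the second control (0.44, adjusted p = 0.0524). In all, 4 pseudogenes or unclassified transcripts overlap the gene, and the highest of them reached 0.181 FPKM.

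The ratio of Tgfbr2 to Tgfbr1 FPKM was 2.40 ± 0.250 after nintedanib, 1.65 ± 0.138 after radiation and 2.20 ± 0.228 after the combination, against 2.09 ± 0.135 in controls (SD, n = 3 each). The radiation libraries, at 1.5 to 1.77, lay below the other 9, and the nintedanib, combination and control ranges overlapped. This ratio was not tested.

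Smad3 fell with nintedanib and with the combination, and did not pass the test after radiation. Smad3 (ENSMUSG00000032402, protein coding, chr9:63646767-63757994, minus strand) encodes the receptor-regulated SMAD that binds DNA directly. It measured 9.31, 12.2 and 10.7 FPKM after nintedanib and 10.9, 10.04 and 8.70 FPKM after the combination, against 17.1, 16.1 and 16.9 FPKM in controls. The radiation libraries, at 15.9, 16.3 and 18.3 FPKM, spanned the control range. The change was -0.60 ± 0.10 (log2, SE, limma adjusted p = 0.000621) for nintedanib, -0.71 ± 0.10 (adjusted p = 0.000167) for the combination and 0.0072 for radiation (interval -0.21 to 0.23). Against radiation alone, the combination was at -0.71 ± 0.10 (adjusted p = 0.000290). As a ratio of mean FPKM to control, Smad3 stood at 0.641 after nintedanib and 0.592 after the combination.

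The Smad3 promoter window (chr9:63757995-63758244, minus strand) is shown as that of the gene that fell where Tgfb2, Tgfb3 and the receptor genes rose, with the same marks.
Smad3: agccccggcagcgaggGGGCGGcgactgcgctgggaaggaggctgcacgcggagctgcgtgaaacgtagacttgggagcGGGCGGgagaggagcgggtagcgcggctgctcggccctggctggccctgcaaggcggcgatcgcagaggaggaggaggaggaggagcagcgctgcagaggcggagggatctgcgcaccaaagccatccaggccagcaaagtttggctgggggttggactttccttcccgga
It held 2 GC boxes, starting 234 and 171 bases before the RefSeq start site, and none of the other motifs, with 69.2% G and C.

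Smad2 (ENSMUSG00000024563, protein coding, chr18:76241580-76305731, plus strand) encodes the other SMAD that receives the receptor signal. It measured 16.8, 14.3 and 15.3 FPKM after nintedanib, 15.7, 16.2 and 15.7 FPKM after radiation and 14.7, 12.6 and 15.8 FPKM after the combination, against 19.5, 16.01 and 19.2 FPKM in controls. The combination libraries lay below the controls by as little as 15.8 against 16.01 FPKM, and the other 2 treated groups overlapped the controls. The combination gave -0.33 ± 0.10 (log2, SE, limma adjusted p = 0.0157). That call was lost in 4 of 23 other settings: after rescaling FPKM to a common sum (-0.26, adjusted p = 0.0675), without the first control (-0.28, adjusted p = 0.0630), without the third control (-0.29, adjusted p = 0.0617) and without the second combination library (-0.24, adjusted p = 0.0661). Nintedanib alone gave -0.22 (interval -0.43 to -0.010, adjusted p = 0.0869) and radiation alone -0.18 (interval -0.40 to 0.027, adjusted p = 0.212).

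Smad4 (ENSMUSG00000024515, protein coding, chr18:73639009-73703780, minus strand) encodes the common partner of Smad2 and Smad3 and had the highest level of the 9 genes in every group. It measured 39.4, 42.3 and 40.04 FPKM after nintedanib, 46.9, 44.8 and 49.8 FPKM after radiation and 43.5, 41.9 and 40.1 FPKM after the combination, against 48.6, 41.2 and 47.2 FPKM in controls. All treated groups overlapped the controls. The differences from control were -0.16 for nintedanib (interval -0.33 to -0.000239, limma adjusted p = 0.1003), 0.048 for radiation (interval -0.12 to 0.21) and -0.12 for the combination (interval -0.28 to 0.042). Without the second control library the nintedanib difference was -0.23 and passed the threshold (adjusted p = 0.0280), as did that of Smad2 (-0.31, adjusted p = 0.0288). In the other 22 settings neither gene passed, and the difference was as small as -0.069 for Smad4 and -0.13 for Smad2.

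Both groups given nintedanib had a lower ratio of Smad3 to Smad2 than controls. Every treated group, radiation alone included, had a higher ratio of Smad4 to Smad2 plus Smad3 than controls. The ratio of Smad3 to Smad2 FPKM was 0.701 ± 0.151 after nintedanib, 1.06 ± 0.0916 after radiation and 0.699 ± 0.130 after the combination, against 0.921 ± 0.0748 in controls (SD, n = 3 each). The ratio in nintedanib libraries, 0.553 to 0.854, and combination libraries, 0.551 to 0.799, stayed under that in control libraries, 0.878 to 1.01. The ratio of Smad4 to the sum of Smad2 and Smad3 was 1.55 ± 0.0476 after nintedanib, 1.44 ± 0.0566 after radiation and 1.73 ± 0.112 after the combination, against 1.31 ± 0.0228 in controls. No library of one group fell inside the range of another for this second ratio, the combination being highest and the controls lowest. These ratios were not tested.

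In controls, the level order per length was Smad4 (45.7 FPKM), Tgfbr2 (20.8), Smad2 (18.2), Smad3 (16.7), Tgfbr1 (10.02), Tgfb1 (8.31), Tgfb3 (6.18), Tgfbr3 (4.84) and Tgfb2 (3.04). The library ranges of Smad2 and Smad3 overlapped, as did those of Tgfb3 and Tgfbr3, so neither pair was ordered beyond its spread. After the combination, Smad3 averaged 9.89 FPKM and came after Tgfbr1, at 13.7 FPKM, with no overlap of the libraries. Tgfb2 was the lowest of the 9 means in every group, and after nintedanib its range overlapped that of Tgfbr3.

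Whether radiation altered the response to nintedanib was asked by subtracting the nintedanib change in unirradiated cells from that in irradiated cells. In irradiated cells, the combination raised Tgfb2 and Tgfbr2 and lowered Smad3 relative to radiation alone, 2 of 9 genes higher and 1 lower, where 17.2% and 17.3% of genes tested were higher and lower. Tgfb3 was 0.20 higher (interval 0.00134 to 0.40, limma adjusted p = 0.112) and Tgfbr3 0.32 higher (interval -0.0054 to 0.65, adjusted p = 0.120), and neither passed. The difference between the nintedanib changes passed for 0 of the 9 genes by limma and by limma-voom, and 2 of the 9 had an unadjusted p under 0.05. These were Tgfb2, at 0.25 (interval 0.018 to 0.48, adjusted p = 0.358), and Tgfbr1, at -0.28 (interval -0.52 to -0.030, adjusted p = 0.349). The pseudocount of 1 understates the Tgfb2 changes, as said above. Across 22 other settings the Tgfb2 difference ranged from 0.15 to 0.42, with a lowest limma adjusted p of 0.237. For Smad3 the difference was -0.11 with an interval of -0.42 to 0.20, and for Tgfbr2 it was -0.081 with an interval of -0.39 to 0.23.

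Over all genes tested, this difference was called for 0.00769% of genes, 1 of 13012 by limma and 2 by limma-voom, while 1685 had an unadjusted p under 0.05. The 1 gene, named after its value was seen, was Egr1, an immediate early transcription factor, at 1.21 (adjusted p = 0.0281). The count was 0 to 5 when single libraries were left out. The median over all genes tested was 0.012, and -0.10 after rescaling FPKM to a common sum. Radiation on top of nintedanib gave 1 call among the 9 genes, the lower Tgfb2, where 3.17% and 2.37% of genes tested were higher and lower. Of the 722 genes behind these shares, 357 were called without the second nintedanib library, 453 without the third, 269 without the second combination library and 432 without the third.

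**Figure D4:**
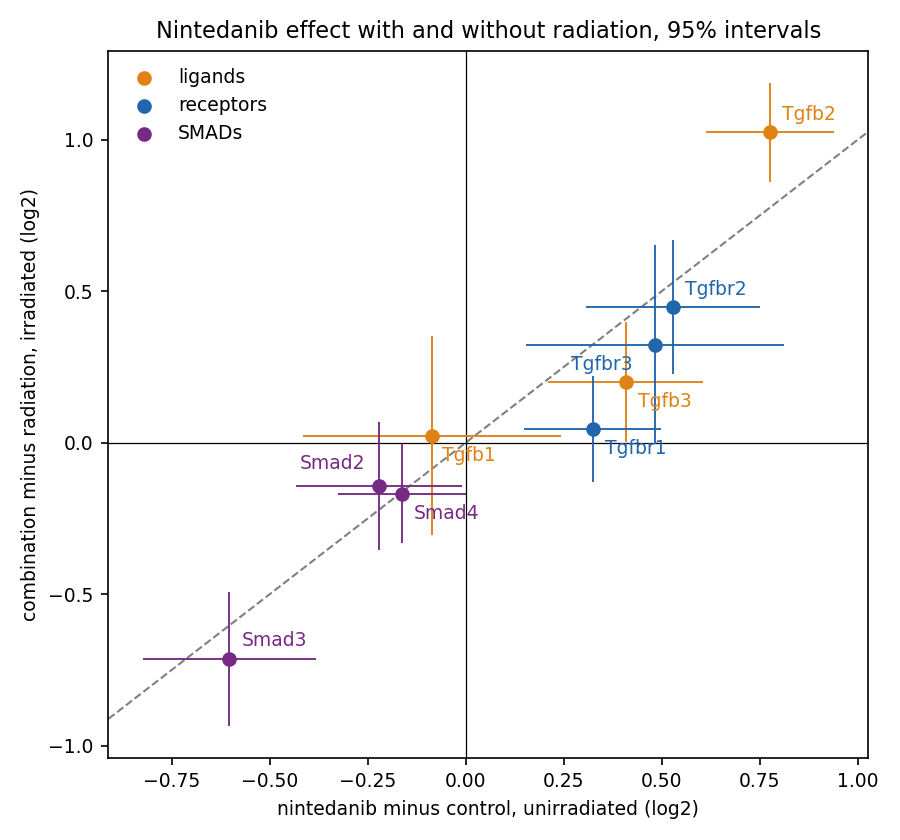
Change with nintedanib in unirradiated cells (x axis, nintedanib minus control) against the change in irradiated cells (y axis, combination minus radiation), both in log2(FPKM + 1) with 95% intervals; the dashed line marks equal changes. The 2 axes share no library, Tgfb2 lies highest on both at 0.78 and 1.02, and Smad3 lowest on both at -0.60 and -0.71.

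The genes whose profile over the 12 libraries was most like that of each of the 9 were found by Pearson's r of log2(FPKM + 1) among 7390 protein-coding genes with a mean FPKM of at least 5. The r values describe 12 libraries of 4 treatments that share those treatments and their depth. Tgfb2 was closest to Hsdl1, a dehydrogenase-like gene (r = 0.992), and to Vdr, the vitamin D receptor (r = 0.986). Vdr averaged 48.8 FPKM after nintedanib, 14.1 FPKM after radiation and 36.3 FPKM after the combination, against 22.5 FPKM in controls, the same order of groups as Tgfb2. Tgfbr2 was closest to Arhgef10 (r = 0.992) and to Mturn (r = 0.978).

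Smad3 was closest to Rprd2 (r = 0.981) and Selenoi (r = 0.978). Tgfbr1 was closest to Cdk19, a Mediator kinase (r = 0.950), and Kitl, the ligand of the Kit receptor (r = 0.946). Tgfbr3 was closest to Reep3 (r = 0.951) and Ccng2 (r = 0.939), and Tgfb3 to St6gal1, a sialyltransferase (r = 0.909), and Ext1, a heparan sulfate polymerase (r = 0.901). The closest genes to Tgfb1 were Ehmt2, a histone methyltransferase (r = 0.944), and Map7d1 (r = 0.938). For Smad2 they were Caprin1 (r = 0.935) and Urb2 (r = 0.922), and for Smad4 they were Abhd2 (r = 0.935) and Stk24, a kinase (r = 0.912).

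Around the 9 genes, 144 other genes of the pathway were counted in 7 lists, and 116 of them were tested. The lists were chosen with earlier results of these data known, so their counts are descriptions. Without the third nintedanib library, the nintedanib counts moved by at most 1 in either direction, except in the activin and nodal list, where 2 were higher rather than 4. Each count is to be read against the share of all genes tested that was called: for nintedanib 19.7% higher and 22% lower, for radiation 8.04% higher and 9.9% lower, and for the combination 22.3% higher and 25% lower. Among genes that store or release latent ligand, 15 of 21 were tested. With nintedanib 4 were higher and 4 lower, with radiation 2 and 1, and with the combination 5 and 6. Of the tested genes of the list these were 26.7% each way with nintedanib, near the shares over all genes, and 33.3% higher and 40% lower with the combination. Ltbp1, which anchors latent TGF-beta in the matrix, averaged 5.26 ± 0.420 FPKM after nintedanib and 5.30 ± 0.127 FPKM after the combination, against 14.2 ± 0.283 FPKM in controls (SD, n = 3 each, log2 -1.28 and -1.27, limma adjusted p = 1.45e-07 and 1.38e-07). The metalloproteinase gene Mmp14 averaged 73.5 ± 2.37 FPKM after nintedanib, 25.2 ± 2.21 FPKM after radiation and 58.1 ± 1.06 FPKM after the combination, against 29.8 ± 0.953 FPKM in controls. It was called higher, lower and higher in those groups, at 1.27, -0.24 and 0.94 on the log2 scale. Mmp2, a gelatinase gene, rose by 0.98 with nintedanib and 0.92 with the combination (log2). The integrin gene Itgb3 rose by 0.76 with radiation and by 0.55 with the combination (log2, limma adjusted p = 0.00739 and 0.0117). Among the other integrin subunits of the list, Itgb6 and Itgb8 did not exceed 0.0626 and 0.596 FPKM. Itgav, Itgb1 and Itgb5, named after their values were seen, had group means of 20.7 to 24.1, 250.5 to 262 and 99.7 to 120.1 FPKM, and Itgb5 was lower with the combination, at -0.27 (limma adjusted p = 0.0336). Of the rest, the latent ligand anchors Lrrc32 and Nrros did not exceed 0.406 and 0.222 FPKM.

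**Figure D5:**
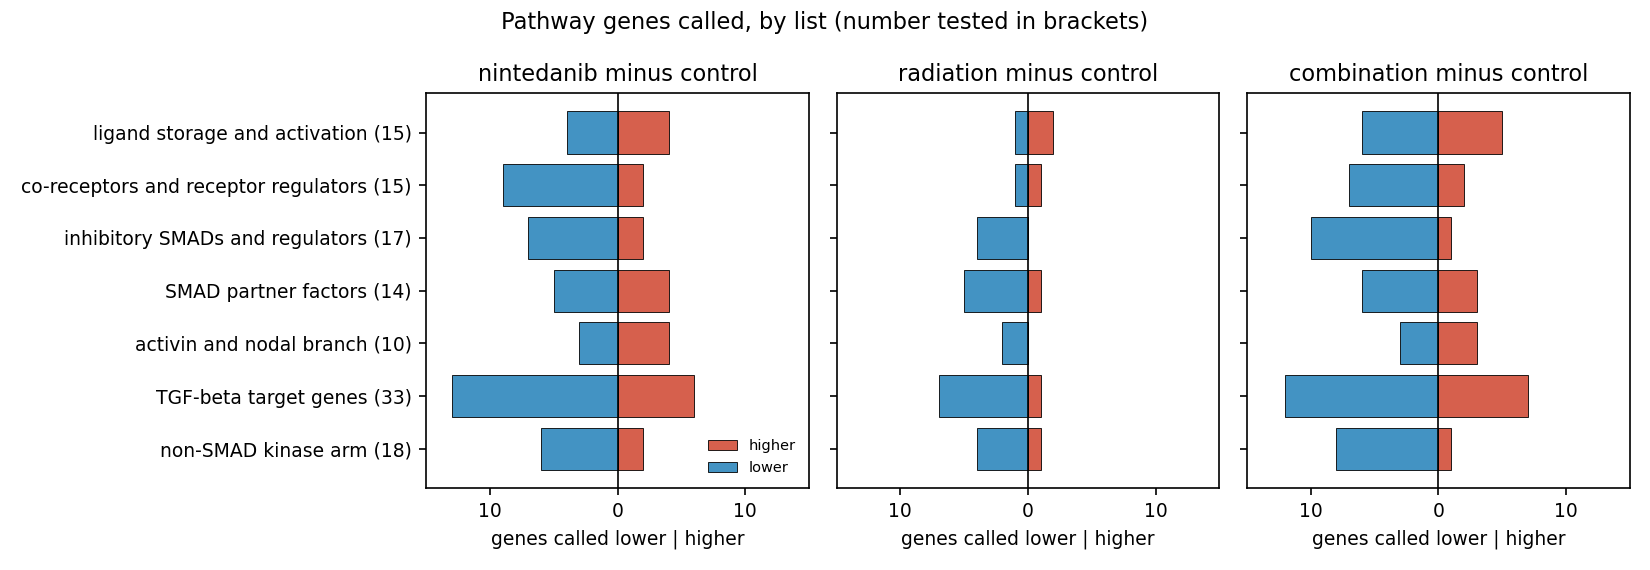
Number of pathway genes called lower (bars to the left of 0) and higher (bars to the right of 0) against control after nintedanib, radiation and the combination, in 7 lists with the number tested in brackets. Over all genes tested, nintedanib had 19.7% higher and 22% lower, radiation 8.04% higher and 9.9% lower, and the combination 22.3% higher and 25% lower; higher and lower calls are 4 and 4 of 15 for storage and activation with nintedanib, and 2 and 9 of 15 for the co-receptor list.

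Of 17 co-receptors and regulators of the receptors, 15 were tested. Nintedanib gave 2 higher and 9 lower, radiation 1 and 1, and the combination 2 and 7, with list medians of -0.24, -0.091 and -0.11 (log2) beside -0.016, -0.035 and -0.032 over all genes tested. The lower calls were 60.0% of the tested list with nintedanib and 46.7% with the combination, where 22% and 25% of all genes tested were lower. Ppp1r15a, which guides a phosphatase to stress and receptor substrates, averaged 12.3 ± 1.68 FPKM after nintedanib, 34.3 ± 4.90 FPKM after radiation and 14.2 ± 1.44 FPKM after the combination, against 63.1 ± 10.1 FPKM in controls. Its changes were -2.27, -0.86 and -2.07 (log2, limma adjusted p = 6.82e-07, 0.00231 and 8.89e-07). Strap, a receptor-binding inhibitor of the pathway, was lower with nintedanib and with the combination, at -0.75 and -0.76. Pmepa1, a target gene whose product sequesters Smad2 and Smad3, was at -0.75 and -0.90. Zfyve9 (SARA), which brings Smad2 and Smad3 to the receptor, was at -0.47 and -0.86, both called. Vasn, which binds ligand, was higher with nintedanib, at 0.58 (adjusted p = 0.000208).

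All 17 inhibitory SMADs, corepressors and SMAD regulators were tested. Nintedanib gave 2 higher and 7 lower, radiation 0 and 4, and the combination 1 and 10, with list medians of -0.11, -0.22 and -0.30 (log2). The lower calls were 41.2%, 23.5% and 58.8% of the list, where 22%, 9.9% and 25% of all genes tested were lower. Tgif1, a SMAD corepressor gene, averaged 6.40 ± 0.620 FPKM after nintedanib, 11.9 ± 1.23 FPKM after radiation and 5.96 ± 0.113 FPKM after the combination, against 17.5 ± 0.322 FPKM in controls. It was lower in all 3 comparisons, at -1.33, -0.52 and -1.41 (limma adjusted p = 5.82e-07, 0.00171 and 2.97e-07). Skil (SnoN), another corepressor, was lower with nintedanib and the combination, at -0.53 and -0.89, and so was Ppm1a, a phosphatase acting on Smad2 and Smad3, at -0.56 and -0.53. Smad6, the inhibitory SMAD of the bone morphogenetic protein branch, was higher, averaging 14.9 ± 4.51 FPKM after nintedanib and 11.2 ± 4.54 FPKM after the combination, against 5.26 ± 0.300 FPKM in controls. Smad7, the inhibitory SMAD of this pathway, named after its values were seen, was lower, at -0.80 with nintedanib (adjusted p = 0.00926) and -0.62 with the combination (adjusted p = 0.0298).

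Of 16 SMAD partner factors, 14 were tested. Nintedanib gave 4 higher and 5 lower, radiation 1 and 5, and the combination 3 and 6. The higher calls with the combination were 21.4% of the tested list and the lower calls 42.9%, where 22.3% and 25% of all genes tested were higher and lower. Hmga2, a chromatin factor that also stands on the target list, averaged 5.88 ± 0.133 FPKM after nintedanib, 13.0 ± 0.610 FPKM after radiation and 5.31 ± 0.705 FPKM after the combination, against 19.4 ± 0.522 FPKM in controls, and was lower in all 3. Fosl2, an AP-1 subunit, had its groups in the same order as Tgfb2. It averaged 34.2 ± 3.35 FPKM after nintedanib, 10.9 ± 0.314 FPKM after radiation and 24.1 ± 1.18 FPKM after the combination, against 16.9 ± 0.646 FPKM in controls. Its changes were 0.98, -0.59 and 0.49 (log2, limma adjusted p = 2.57e-06, 0.000603 and 0.000255). Runx1, a Runt-domain factor, was lower in all 3 at -0.91, -0.38 and -0.87, and Junb, another AP-1 subunit, was at -1.46 with nintedanib.

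Of 40 genes commonly used as TGF-beta targets, 33 were tested. Smad7, Skil, Pmepa1, Ldlrad4, Junb and Hmga2 also stand on another list and are counted in both. All of these but Ldlrad4 were called lower with nintedanib. Nintedanib gave 6 higher and 13 lower, radiation 1 and 7, and the combination 7 and 12, with list medians of -0.12, -0.022 and -0.18 (log2). The higher calls were 18.2%, 3.03% and 21.2% of the tested list, where 19.7%, 8.04% and 22.3% of all genes tested were higher. The lower calls were 39.4%, 21.2% and 36.4%, where 22%, 9.9% and 25% were lower. Timp3, a metalloproteinase inhibitor gene, was at -1.40 with nintedanib and -1.29 with the combination (limma adjusted p = 9.69e-07 and 1.19e-06), and Tsc22d1 at -0.58 with nintedanib and -0.30 with radiation. A pair of matrix genes went the other way: Col1a2 was at 0.93 with nintedanib, and Tgfbi, which averaged 176 ± 9.31 FPKM after the combination against 98.7 ± 3.64 FPKM in controls, was at 0.83. Cyr61, a matricellular gene, was lower after radiation alone, at -0.64.

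The target list shares 6 genes with the mesenchymal marker list and 4 with the fibroblast list. The fibroblast markers, 7 of 10 reaching FPKM 1, summed to 268.9 to 302.5 FPKM after nintedanib, 181.1 to 202.1 after radiation and 260.3 to 299.0 after the combination, against 186.8 to 193.4 in controls. The mesenchymal markers summed to 1637 to 1706 FPKM after nintedanib, 1443 to 1567 after radiation and 1674 to 1887 after the combination, against 1479 to 1594 in controls. The epithelial markers summed to 6.80 to 9.60 FPKM after nintedanib, 6.90 to 7.25 after radiation and 11.5 to 13.9 after the combination, against 5.16 to 5.99 in controls. Leukocyte markers, 3 of 10 reaching FPKM 1, summed to 23.0 to 24.2 FPKM after nintedanib, 12.2 to 14.2 after radiation and 27.2 to 30.1 after the combination, against 11.96 to 13.2 in controls. Endothelial markers, 2 of 8 reaching FPKM 1, summed to at most 4.24 FPKM in any library. The part of these markers in the changes of the 9 genes was not tested.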

How the data were processed

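The authors deposited FPKM values for 54532 genes in 12 libraries, with gene names, coordinates and gene model lengths. GRCm38 (mm10) is the build named in the submitters' processing notes, and total RNA was made into libraries with a SMARTER mRNA kit, per the labels' protocols. The aligner, counter, annotation release, strand setting and scaling step were looked for and are not stated in the sources used here. FPKM times length was a whole multiple of 1 step per library in 100% of nonzero values (tolerance 0.01 of a step), which gave the fragments, an alternative input for limma-voom. At FPKM 1, a 1 kilobase gene stood for 16.4 to 18.7 fragments. The library size used in the FPKM was 1.00 to 1.03 times the fragments in treated libraries and 0.970 to 0.982 times in controls. Replicates differed by more than sampling noise (chi-square per gene 4.30 to 30.2 in 12 pairs). Depth covers counting error only, since no molecular identifiers mark independent molecules.

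Groups came from the sample titles. A limma 3.58.1 fit (R 4.3.3) on log2(FPKM + 1), with an intensity trend, held all 12 libraries and a mean per group (8 residual degrees of freedom). It covered the 13012 genes reaching FPKM 1 in 3 or more libraries. The test was two-sided with Benjamini-Hochberg adjustment at 0.05 within each of 6 comparisons. It was also run on simulated data with independent noise and a smaller share of changed genes than was called against control. The outcome of that run is not reported here. Intervals are 95% and unadjusted. All 9 members were named. From each list, up to 4 genes with the smallest adjusted p per comparison with control could be named, as could list genes too low to be tested, with their highest FPKM. Genes outside that rule are marked in the text. Some genes under the rule are not reported here. Members and lists were chosen with earlier results of these data known. Promoter sequences are from RefSeq (GRCm38.p6). Windows on chromosome 18, which holds Smad2 and Smad4, were left out of the search of the 9 genes. Of the 9, 5 had a window that was searched. The 23 alternatives covered pseudocounts, filters, scaling, limma-voom, 2-group fits, a replicate block, protein-coding genes and leaving out each library. List counts and ligand shares without the third nintedanib library were added after seeing the data.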

Additional observations from a re-analysis of the deposited data

How the results depend on the processing

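Of the 19 differences of the 9 genes that passed the threshold, none changed direction in 437 recomputations, and 420 of these kept the call. The 17 lost calls belonged to Tgfbr3, Tgfb3, Smad2 and, for the combination against nintedanib, Tgfb2, as given beside those results. Of 796 recomputations of the 35 differences that had not passed, 3 passed and 22 changed direction, and the cause was not tested.

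Rescaling FPKM to a common sum turned Tgfb1 in the combination against radiation to -0.015, and the differences between nintedanib changes to -0.013 for Tgfb1 and -0.052 for Smad2. Leaving out single libraries gave these ranges with a change of direction. Tgfb1 ranged from -0.23 to 0.095 for nintedanib against control and from -0.062 to 0.13 for the combination against radiation. Smad3 ranged from -0.051 to 0.045 and Smad4 from -0.022 to 0.093 for radiation against control. Tgfbr1 ranged from -0.019 to 0.085 for the combination against radiation. Tgfbr2 ranged from -0.11 to 0.080 and Tgfbr3 from -0.10 to 0.19 for the combination against nintedanib. The difference between nintedanib changes ranged from -0.071 to 0.25 for Tgfb1, from -0.17 to 0.019 for Tgfbr2 and from -0.051 to 0.065 for Smad4.

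Without single libraries, radiation against control called 1145 to 2606 genes and the combination against nintedanib 269 to 652 genes, with 0 to 1 of the 9 genes. With only those 2 groups in the fit, the combination against nintedanib called 43 genes and 0 of the 9. The difference between nintedanib changes called 0 genes with pseudocounts of 0.1 or 0.5, 12 with no filter on low values, 3 with an FPKM minimum of 5, 4 after rescaling to a common sum, 2 by limma-voom, 4 among protein-coding genes and 0 to 5 without single libraries.

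Replicate numbers did not pair the libraries: 3 of 18 same-numbered pairs had a correlation of residuals over 0.1 (-0.2985 to 0.2019), and 4 of 12 libraries correlated best with their own number. With the replicate number as a block, the combination against nintedanib called 444 genes rather than 722, the difference between nintedanib changes called 0, and no call among the 9 genes changed. Depth limits Tgfb2 most, at 157 fragments in its lowest libraries.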

Other observations

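The activin and nodal branch, which signals through the same Smad2, Smad3 and Smad4 from other receptors, was counted separately, with 10 of 21 genes tested. Nintedanib gave 4 higher and 3 lower, radiation 0 and 2, and the combination 3 and 3. Without the third nintedanib library the nintedanib count was 2 and 3. Over all genes tested, nintedanib had 19.7% higher and 22% lower, radiation 8.04% higher and 9.9% lower, and the combination 22.3% higher and 25% lower. Fstl1, a secreted follistatin-like glycoprotein gene, averaged 867.2 ± 99.996 FPKM after nintedanib and 698 ± 80.3 FPKM after the combination, against 423 ± 9.88 FPKM in controls (log2 1.03 and 0.72, limma adjusted p = 3.33e-05 and 0.000339). Gdf11, a ligand of the activin receptors, averaged 4.01 ± 0.665 FPKM after nintedanib and 5.27 ± 0.652 FPKM after the combination, against 1.65 ± 0.160 FPKM in controls (log2 0.91 and 1.24). Gdf15, a distant family member that responds to stress, averaged 6.60 ± 1.58 FPKM after nintedanib and 9.24 ± 2.94 FPKM after the combination, against 21.99 ± 0.962 FPKM in controls (log2 -1.62 and -1.21, both called). Inha, the inhibin alpha subunit gene, was lower in all 3 comparisons, at -0.31 with nintedanib, -0.63 with radiation and -0.54 with the combination. The activin receptor gene Acvr2a was at -0.62 with the combination. Of the activin beta subunit genes, Inhbb and Inhbc were listed at 0 in every library, and Inhbe did not exceed 0.0340 FPKM. Inhba, a further beta subunit gene named outside the rule above, was among the 10 genes tested, and its values are not reported here.

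All 18 genes of the kinase arm that runs beside the SMADs were tested. Nintedanib gave 2 higher and 6 lower, radiation 1 and 4, and the combination 1 and 8. The higher calls were 11.1%, 5.56% and 5.56% of the list, where 19.7%, 8.04% and 22.3% of all genes tested were higher. The lower calls were 33.3%, 22.2% and 44.4%, where 22%, 9.9% and 25% were lower. The Tak1-binding genes Tab1 and Tab2 were lower with the combination, at -0.64 and -0.75 (limma adjusted p = 5.32e-05 and 9.07e-05), and Tab1 was also lower with radiation, at -0.33. Rhoa, a small GTPase gene, averaged 72.3 ± 0.414 FPKM after nintedanib and 68.1 ± 4.21 FPKM after the combination, against 93.3 ± 2.44 FPKM in controls (log2 -0.36 and -0.45, both called). Map2k6, a kinase of the p38 pathway, was higher in all 3 comparisons, at 0.83 with nintedanib, 0.43 with radiation and 0.94 with the combination. It averaged 2.20 ± 0.0609 FPKM after nintedanib, 1.43 ± 0.265 after radiation and 2.46 ± 0.209 after the combination, against 0.804 ± 0.121 in controls. The control mean lay under the filter of FPKM 1, so Map2k6 entered the test through treated libraries. No explanation was tested for these counts.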
